A study of Mus musculus with 6 samples.

Results

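The genes described here encode the DNA topoisomerases and the tyrosyl-DNA phosphodiesterases, enzymes that make and remove covalent protein-DNA bonds. Doxorubicin traps the bond made by the type II topoisomerases. The genes were chosen by name, as the rows Top1, Top1mt, Top2a, Top2b, Top3a, Top3b, Tdp1 and Tdp2, and all 8 were present among the 24972 rows of the expression table. Cardiomyocyte RNA came from MX1gfp reporter mice, a strain (Jackson Laboratory) with a green fluorescent protein reporter for the interferon-stimulated gene Mx1. One group of 3 mice received vehicle, phosphate-buffered saline, and the other group of 3 received 1 dose of 25 mg per kg doxorubicin, both into the peritoneum. RNA was taken 48 hours after injection in both groups, from ventricles digested with collagenase whose myocytes had settled by gravity without sorting. The labels give neither age, sex nor background strain, and both groups carry the reporter.

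Topoisomerases relieve the twisting and tangling of DNA by cutting it, passing strands through and sealing it again, while the cut end is held on a tyrosine of the enzyme. Type IB enzymes (TOP1 in the nucleus, TOP1MT in mitochondria) and type IA enzymes (TOP3A and TOP3B) cut a single strand, whereas type II enzymes (TOP2A and TOP2B) cut both strands. Doxorubicin is an anthracycline that poisons type II enzymes by holding them in the cut state. TOP2A belongs to dividing cells, and TOP2B is the type II enzyme of non-dividing cells such as the adult cardiomyocyte. In mice, loss of Top2b from cardiomyocytes is known to lessen the cardiac toxicity of doxorubicin. When a trapped enzyme is degraded, its tyrosine stays on the DNA end: TDP1 removes it mainly after TOP1 and TDP2 mainly after TOP2.

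The promoters of the type II pair are shown because the values of Top2a and Top2b ran apart between libraries. Each line gives, on the gene's own strand, the 250 bases before the transcription start that the RefSeq promoter table uses on GRCm38.p6 (the assembly that mm10 denotes). That start can lie inside the gene record, and the last 10 bases of the Top2a window do, as do the last 14 for Top3b and the last 3 for Tdp1, while the Top1 and Top2b windows end just before the record. The Top2a window lies at chr11:99024190-99024439 on the minus strand and the Top2b window at chr14:16364956-16365205 on the plus strand.
Top2a: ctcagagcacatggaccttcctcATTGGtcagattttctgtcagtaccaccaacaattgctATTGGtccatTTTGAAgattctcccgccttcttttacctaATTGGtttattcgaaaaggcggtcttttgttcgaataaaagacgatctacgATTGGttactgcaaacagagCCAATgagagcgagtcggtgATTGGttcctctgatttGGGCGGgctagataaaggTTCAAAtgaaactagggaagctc
Top2b: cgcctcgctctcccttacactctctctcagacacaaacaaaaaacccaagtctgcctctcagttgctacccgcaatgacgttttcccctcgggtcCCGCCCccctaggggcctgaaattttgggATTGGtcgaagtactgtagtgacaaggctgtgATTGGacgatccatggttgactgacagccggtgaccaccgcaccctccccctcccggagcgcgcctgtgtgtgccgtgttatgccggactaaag
Capitals mark 3 motifs searched on both strands. The first is CCAAT, which reads as ATTGG where it lies on the opposite strand. The second is the GC box GGGCGG, whose opposite strand reads CCGCCC. The third is TTTGAA, whose opposite strand reads TTCAAA, and no marked motif overlapped another. CCAAT, a box common in promoters of cell-cycle genes, occurred 6 times in the Top2a window and 2 times in that of Top2b. Of 32851 promoters of the same length, 33.8% held it at least once, 10.1% at least 2 times and 0.0578% at least 6 times. TTTGAA, the letters of the cell-cycle homology region, occurred 2 times in the Top2a window, 0 times in that of Top2b and once in that of Tdp1. It occurred at least once in 16.0% of promoters and at least 2 times in 1.81%. The nearer Top2a site ended 18 bases before the start in the promoter table and 8 bases before the gene record. The GC box GGGCGG occurred once in each of the Top2a and Top2b windows, 3 times in that of Top1 and once in that of Tdp1. At least 1 was found in 32.7% of promoters and at least 3 in 8.47%. CACGTG was found, among the 5 windows, only in that of Top1 (in 6.02% of promoters). Top3b held 1 CCAAT and none of the other motifs. These 5 genes matched the promoter table, and Top1mt, Top3a and Tdp2 did not. A match is a run of letters and was not tested as a binding site. Any link between these motifs and the expression values was not tested either.

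The expression values are the authors' deposited normalized counts for each gene, which summed to 7217172 to 7499707 per vehicle library and to 5410123 to 6497696 per doxorubicin library, with an estimated 7700000 to 11400000 and 3660000 to 6180000 reads behind them, so treatment and depth cannot be told apart. All 12 cardiomyocyte markers were present in every library, as were endothelial, fibroblast and macrophage markers. The summed cardiomyocyte markers were 750809 to 852701 in the vehicle libraries and 643432, 233133 and 193755 after doxorubicin (replicates 1 to 3). Of the 12, 9 had every doxorubicin library below every vehicle library, against 22.6% of tested genes. Endothelial markers summed to 18361 to 25503 and to 34084, 36121 and 46645, with 7 of 10 not overlapping, all higher. Fibroblast markers summed to 6734 to 8826 and to 9365, 24166 and 17508, with 4 of 9 not overlapping, all higher. Macrophage markers summed to 2583 to 2791 and to 4238, 7421 and 15615, with 9 of 10 not overlapping between groups, all higher after doxorubicin, as were 19.2% of all genes tested. Doxorubicin replicate 1 stood nearer to the vehicle libraries than replicates 2 and 3 did. Its lowest Spearman correlation to them was 0.977 across 12475 genes, against 0.896 for replicate 2 and 0.860 for replicate 3. Among the vehicle libraries themselves the correlations were higher, at 0.986 to 0.989. In bulk RNA, fewer cells of a type and less RNA per cell cannot be told apart.

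All 8 genes passed the minimum mean of 10 normalized counts and were tested with limma among 12475 genes. None (0) passed an adjusted p of 0.05, as was the case for 0% of all tested genes, and 0 of the 8 had an unadjusted p under 0.05, against 36.0% of tested genes. In 2 of the 8, Top1mt and Top3a, every doxorubicin library lay above every vehicle library, an arrangement found in 19.2% of tested genes. In 0 of the 8 did every doxorubicin library lie below every vehicle library, against 22.6% of tested genes. With every library scaled to the same total these background shares were 36.7% and 10.1%, and 4 of the 8 genes lay wholly higher. The median log2 difference of the 8, taken as doxorubicin minus vehicle after adding 1 to each value, was -0.0036, and that of all tested genes was -0.0046. The median size of the difference regardless of sign was 0.16 in the 8 genes and 0.41 in all tested genes. Differences below are on this log2 scale, with the standard error (SE) and the adjusted p of limma.

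**Figure D1:**
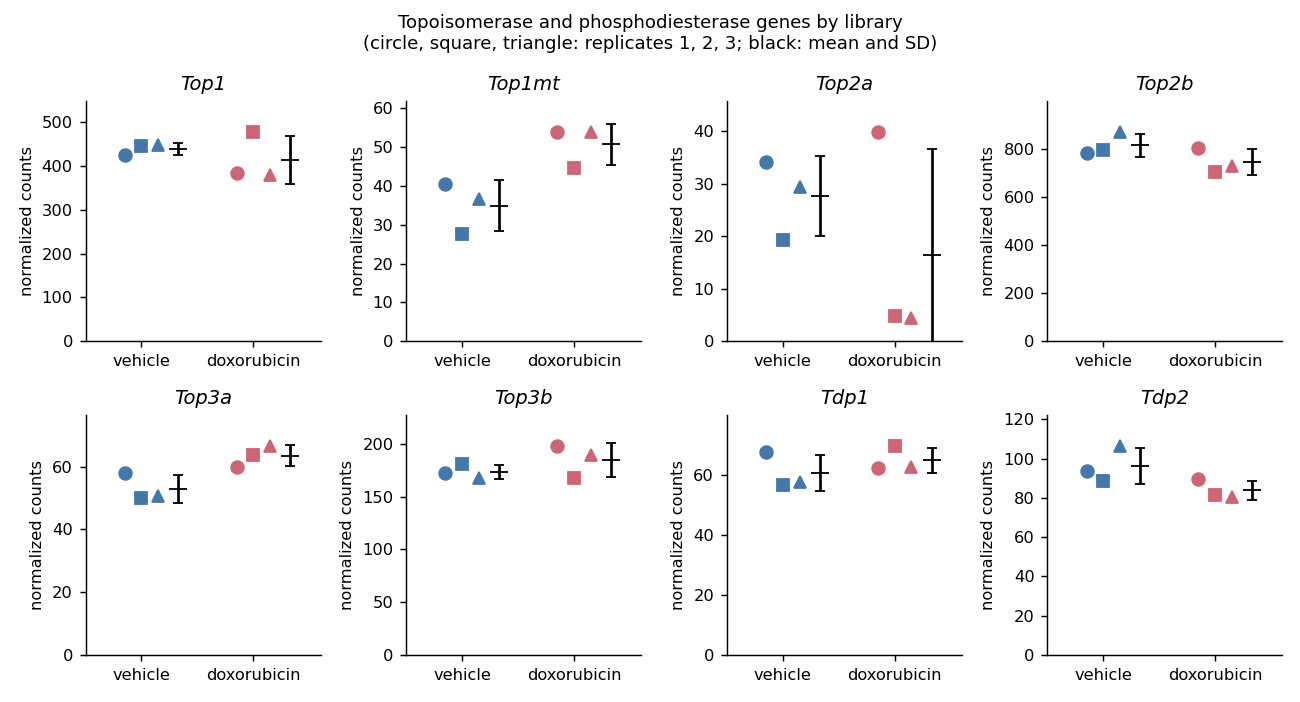
Normalized counts (vertical axes from 0, linear) of the 8 genes in 3 vehicle and 3 doxorubicin libraries, with the mean and SD of each group in black; the lower SD bar of Top2a after doxorubicin runs below 0 and is not drawn there. Top2a is at 39.8 in doxorubicin replicate 1 and at 4.81 and 4.32 in replicates 2 and 3, while Top2b lies between 701 and 868.

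Top2b (gene ID 21974, GRCm38.p6 chromosome 14, 16365206 to 16430787) encodes the type II enzyme of the adult cardiomyocyte. Its values were 782, 792 and 868 in the 3 vehicle libraries and 804, 701 and 726 after doxorubicin (replicates 1 to 3). The groups overlapped, because doxorubicin replicate 1 exceeded 2 vehicle libraries. The mean was 814 ± 47.4 in vehicle and 744 ± 53.8 in doxorubicin libraries (SD, n = 3 each), and the log2 difference was -0.13 (SE 0.14, limma adjusted p 0.514). Its 95% interval ran from -0.45 to 0.19, so with the deposited scaling a larger fall or rise on the log2 scale lay outside it. The bound depends on that scaling. With every library scaled to the same total, the Top2b difference was 0.17, or -0.12 relative to the median of all tested genes. As deposited, larger differences than that of Top2b, in either direction, were seen in 81.6% of tested genes. The level of Top2b thus varied between 701 and 868 across libraries whose summed cardiomyocyte markers ranged from 193755 to 852701. The part that the makeup of the libraries played in this value was not tested.

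Top2a (gene ID 21973, chromosome 11, 98992947 to 99024199) encodes the type II enzyme of dividing cells. Its values were 34.1, 19.3 and 29.3 in the 3 vehicle libraries and 39.8, 4.81 and 4.32 after doxorubicin (replicates 1 to 3). Doxorubicin replicate 1 was thus the highest of the 6 libraries, and replicates 2 and 3 were the lowest. The mean was 27.6 ± 7.58 in vehicle and 16.3 ± 20.3 in doxorubicin libraries (SD, n = 3 each), and the log2 difference was -1.37 (SE 0.78, adjusted p 0.237), within the spread between replicates. Without doxorubicin replicate 1 the difference was -2.32 (SE 0.44) with a limma adjusted p of 0.0047, in a setting where 41.1% of all tested genes passed 0.05 (19.3% higher, 21.8% lower). Top2a was the only one of the 8 genes to pass there, and the adjusted p of the other 7 ran from 0.175 to 0.862.

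The depth behind the low Top2a values is small. The estimated reads on Top2a were 54, 20 and 33 in the vehicle libraries and 38, 4 and 3 after doxorubicin (replicates 1 to 3). The exact 95% Poisson interval, which covers counting error only and rests on estimated reads, was 1.32 to 12.4 normalized counts in doxorubicin replicate 2 and 0.913 to 12.9 in replicate 3. It was 11.7 to 29.6 in vehicle replicate 2, the lowest vehicle library, so these intervals touched, whereas they lay below those of the other 2 vehicle libraries, 25.8 to 44.8 and 19.9 to 40.6. A small snoRNA gene lies within Top2a in the annotation, and the use of strand in counting is not given in the sources used here.

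Read against length, Top2b exceeded Top2a in every library. Per kilobase of coding sequence, the Top2b level was 21.7, 38.9 and 28.1 times that of Top2a in vehicle replicates 1 to 3, and 19.2, 138 and 159 times after doxorubicin (replicates 1 to 3). The larger ratios rest on the 4 and 3 reads of Top2a. The log2 ratio of Top2a to Top2b, taken like the other log2 ratios after adding 1 to each value, was -4.87 ± 0.41 in vehicle and -6.11 ± 1.56 in doxorubicin libraries (SD, n = 3 each). The difference of -1.24 (SE 0.93) gave p = 0.4 in an exact two-sided permutation test (0.4 after adjustment over 5 ratios), which cannot go below 0.1 with 3 libraries against 3. Because of the added 1, the ratio still depends somewhat on library scale where values are as low as those of Top2a. The difference was -1.31 when 0.5 was added in its place and -0.71 when 8 was added.

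Genes of proliferation were set beside Top2a from a list of 18, because TOP2A is made in dividing cells. Of the 18, 9 passed the minimum mean and were tested, and 0 of these passed an adjusted p of 0.05 or had groups that did not overlap. Their median log2 difference was -1.23, with 7 negative and 2 positive, against 6285 and 6190 of all tested genes. The differences ran from -2.07 in Cenpf, a kinetochore protein, to 0.57 in Cdc20, an activator of the anaphase-promoting complex. Some of the values lie near 0, such as those of Ccna2, at 1.21 and 0 in doxorubicin replicates 2 and 3. When 8 was added to each value in place of 1, the median of the list was -0.46. Taken by library, the median of the 9 was 0.61 from the vehicle mean in doxorubicin replicate 1 and was -2.56 and -1.14 from it in replicates 2 and 3. In 7 of the 9 tested genes both doxorubicin replicates 2 and 3 lay below every vehicle library, which was the case for 32.9% of all tested genes. Doxorubicin replicate 1 lay above every vehicle library in 7 of the 9, against 29.4% of all tested genes. Among the other 9 listed genes, which were not tested and reached at most 13.6 in any library, each arrangement occurred in 5. These counts were chosen after the values were seen.

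Mki67, the standard marker of cycling cells, held 70.3, 49.2 and 60.1 in the vehicle libraries and 93.2, 6.03 and 10.2 after doxorubicin (replicates 1 to 3). Cenpf held 300.2, 204 and 387 and then 274, 38.5 and 28.8. Both had their lowest values in doxorubicin replicates 2 and 3, as Top2a did. Mcm2, a subunit of the replicative helicase, had the same 2 libraries lowest and replicate 1 highest over a narrower range, with 69.5, 74.6 and 82.6 in vehicle and 96.1, 53.1 and 68.8 after doxorubicin (replicates 1 to 3). Without doxorubicin replicate 1, limma called 4 of the 9 tested genes lower (21.8% of all tested genes) and 0 higher. Erythroid markers had the same order of libraries, with replicate 1 highest and replicates 2 and 3 lowest. Their 5 genes summed to 1211 to 2104 in the vehicle libraries and to 9027, 250 and 421 after doxorubicin (replicates 1 to 3), with Hbb-bs at 0 throughout. Neutrophil markers summed to 10.5 to 21.7 and to 55.0, 563 and 419, with Elane at 0 throughout. The summed cardiomyocyte markers were also lowest in doxorubicin replicates 2 and 3, at 233133 and 193755, with replicate 1, at 643432, below every vehicle library. The part of cardiomyocyte, red-cell or white-cell RNA in the Top2a values was not tested.

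**Figure D2:**
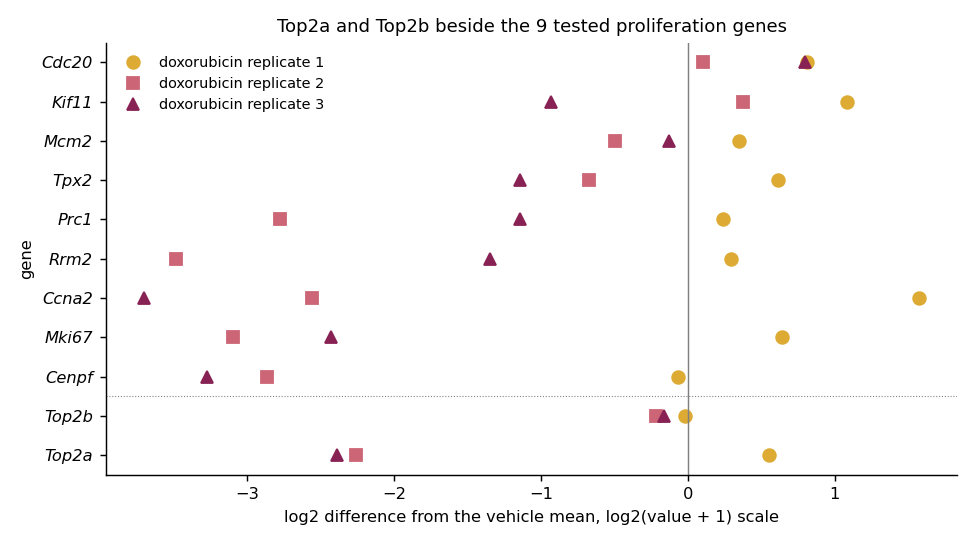
Log2 difference of each doxorubicin library from the vehicle mean (horizontal axis, log2(value + 1) scale) for Top2a, Top2b and the 9 tested proliferation genes. Top2a is at 0.55 in replicate 1 and at -2.26 and -2.39 in replicates 2 and 3, while Top2b lies between -0.21 and -0.016.

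Top1 (gene ID 21969, chromosome 2, 160645897 to 160722764) encodes the nuclear type IB enzyme that relaxes DNA ahead of RNA polymerase. Its values were 425, 446 and 448 in the vehicle libraries and 383, 478 and 379.9 after doxorubicin (replicates 1 to 3). Doxorubicin replicate 2 was the highest library of all and the other two were the lowest, so the groups overlapped. The log2 difference was -0.095 (SE 0.15, adjusted p 0.661), with a 95% interval from -0.44 to 0.25. The 3' end of Top1 overlaps the non-coding gene Gm52567 in the annotation, so a small part of its reads could belong there.

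Top1mt (gene ID 72960, chromosome 15, 75657033 to 75678800) is a nuclear gene for the mitochondrial type IB enzyme, which relaxes mitochondrial DNA. Its values were 40.5, 27.7 and 36.5 in the vehicle libraries and 53.8, 44.5 and 53.9 after doxorubicin (replicates 1 to 3). Every doxorubicin library lay above every vehicle library. The mean was 34.9 ± 6.56 in vehicle and 50.7 ± 5.36 in doxorubicin libraries (SD, n = 3 each). The log2 difference of 0.54 (SE 0.24) had the smallest adjusted p of the 8 genes, 0.147, with a 95% interval from -0.017 to 1.09. It was positive in all 3 doxorubicin libraries, at 0.63, 0.36 and 0.63 from the vehicle mean, and 39.2% of tested genes had a larger difference in either direction. Between 29 and 64 estimated reads lay behind each value.

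Set against the nuclear enzyme, the log2 ratio of Top1mt to Top1 was -3.63 ± 0.31 in vehicle and -3.00 ± 0.34 in doxorubicin libraries. The difference of 0.63 (SE 0.26) gave an exact two-sided permutation p of 0.2 (0.25 adjusted over 5 ratios), and the groups overlapped. Of the other genes that maintain mitochondrial DNA, 8 had negative and 2 positive differences, against 6285 and 6190 of all tested genes. Of 10 listed and tested, 0 passed an adjusted p of 0.05, 2 had every doxorubicin library above every vehicle library (19.2% of tested genes) and 5 had every one below (22.6%). Their median log2 difference was -0.50. Endog, the mitochondrial endonuclease G, had the lowest difference at -1.05 (SE 0.32, adjusted p 0.086), with values of 499, 395 and 423 and then 345, 202 and 133. Exog, its paralogue, had the highest at 0.55 (SE 0.28, adjusted p 0.198), with 25.1, 25.2 and 17.6 and then 34.9, 28.0 and 37.0. Summed cardiomyocyte markers were lower in all 3 doxorubicin libraries, and their part in these values was not tested. Without doxorubicin replicate 1, limma called 6 of the 10 lower (21.8% of all tested genes) and 0 higher, while the difference of Top1mt was 0.49 with an adjusted p of 0.175.

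Top3a (gene ID 21975, chromosome 11, 60738209 to 60777365) encodes the type IA enzyme that dissolves joined DNA molecules with the BLM helicase and also acts in mitochondria. Its values were 57.9, 49.9 and 50.7 in the vehicle libraries and 60.0, 63.8 and 66.6 after doxorubicin (replicates 1 to 3). The lowest doxorubicin library exceeded the highest vehicle library by a narrow margin, 60.0 against 57.9. The log2 difference was 0.26 (SE 0.18, adjusted p 0.324), with a 95% interval from -0.16 to 0.69. Quantile normalization brought the difference to 0.11, and the groups then overlapped.

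Top3b (gene ID 21976, chromosome 16, 16870722 to 16892986) encodes the type IA enzyme that also acts on RNA, together with TDRD3. Its values were 172, 181 and 168 in the vehicle libraries and 198, 167 and 189 after doxorubicin (replicates 1 to 3). Doxorubicin replicate 2 was the lowest library of all and the others the highest, and the log2 difference was 0.088 (SE 0.14, adjusted p 0.676), with a 95% interval from -0.24 to 0.42. The log2 ratio of Top3a to Top3b was -1.70 ± 0.14 in vehicle and -1.53 ± 0.17 in doxorubicin libraries, a difference of 0.17 (exact permutation p 0.2, adjusted 0.25).

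Of the partners of the type IA enzymes and related RecQ helicases, 7 of 8 listed genes were tested and 0 passed an adjusted p of 0.05. Every doxorubicin library lay above every vehicle library in 4 of them (Fmr1, Wrn, Recql and Recql5) and below in 1 (Tdrd3), against 19.2% and 22.6% of tested genes. Their median log2 difference was 0.47. Fmr1, which encodes the fragile X RNA-binding protein, had the highest difference at 0.88 (SE 0.20, adjusted p 0.086), with 108, 128 and 99.4 and then 182, 183 and 260.5. Tdrd3, the scaffold that binds TOP3B, had the lowest at -0.31 (SE 0.15, adjusted p 0.174), with 207, 189 and 230 and then 184, 155 and 164. Rmi2, a subunit of the TOP3A complex, stayed under the minimum mean and was not tested.

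Tdp1 (gene ID 104884, chromosome 12, 99884515 to 99955223) encodes the phosphodiesterase that clears TOP1 remnants from the 3' end. Its values were 67.5, 56.6 and 57.4 in the vehicle libraries and 62.2, 69.5 and 62.6 after doxorubicin (replicates 1 to 3). The groups overlapped and the log2 difference was 0.10 (SE 0.18, adjusted p 0.715), with a 95% interval from -0.33 to 0.53. The log2 ratio of Tdp1 to Top1 was -2.85 ± 0.18 in vehicle and -2.65 ± 0.098 in doxorubicin libraries, a difference of 0.20 (exact permutation p 0.2, adjusted 0.25).

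Tdp2 (gene ID 56196, chromosome 13, 24831659 to 24842153) encodes the phosphodiesterase that clears TOP2 remnants from the 5' end. Its values were 93.8, 88.5 and 106 in the vehicle libraries and 89.3, 81.5 and 80.6 after doxorubicin (replicates 1 to 3). Doxorubicin replicate 1 lay just above the lowest vehicle library, so the groups overlapped by that library alone. The log2 difference was -0.19 (SE 0.16, adjusted p 0.414), with a 95% interval from -0.58 to 0.19. The log2 ratio of Tdp2 to Top2b, repair enzyme to target, was -3.07 ± 0.069 in vehicle and -3.13 ± 0.038 in doxorubicin libraries. The difference of -0.064 (SE 0.045, exact permutation p 0.2, adjusted 0.25) was the smallest in size of the 5 ratios, and over all 6 libraries the ratio ranged only from -3.16 to -3.02.

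**Figure D3:**
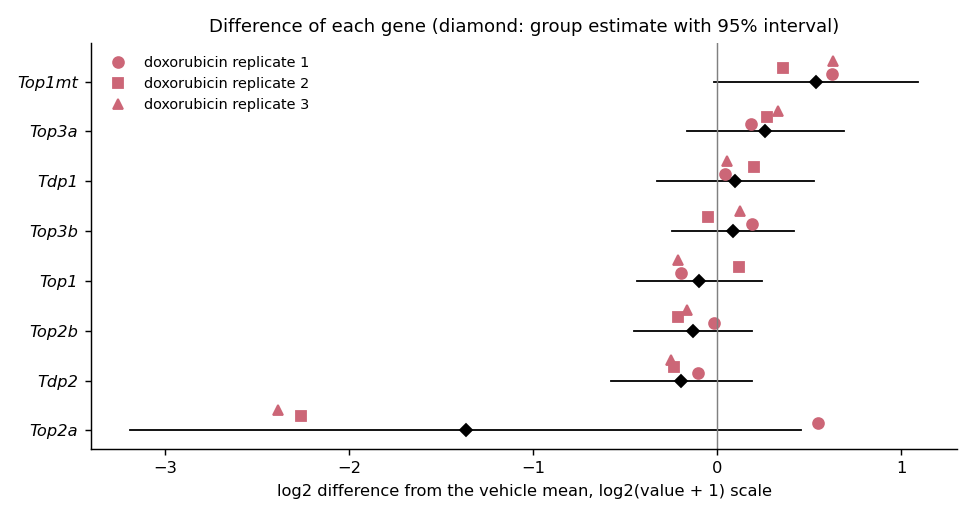
Log2 difference from the vehicle mean (horizontal axis, log2(value + 1) scale) of each of the 8 genes, with the limma group estimate and its 95% interval as a diamond and line and the 3 doxorubicin libraries as coloured symbols above it. Every interval includes 0; that of Top2a is the widest, from -3.19 to 0.46, and that of Top1mt runs from -0.017 to 1.09.

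Levels of the 8 genes were compared with each other per kilobase, first of the longest protein-coding transcript in GENCODE M21. In the vehicle libraries Top1 was highest at 114 ± 3.37 normalized counts per kb (SD, n = 3), followed by Top2b at 78.8 ± 4.58, Top3b at 56.5 ± 2.12, Tdp2 at 49.2 ± 4.71, Tdp1 at 29.7 ± 2.97, Top1mt at 18.4 ± 3.45, Top3a at 14.1 ± 1.18 and Top2a at 5.28 ± 1.45. The ranges of Top1mt, 14.6 to 21.3, and Top3a, 13.3 to 15.5, overlapped, so their order in vehicle is not settled. After doxorubicin the order was unchanged, and Top1mt, at 23.4 to 28.3, no longer overlapped with Top3a, at 16.0 to 17.8.

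The order depended on the length used, and per kilobase of median transcript length, given further below, Top2b and Top3b exceeded Top1. The longest Top2b transcript has 10335 bases, against 4836 coding bases, and per kilobase of coding sequence the vehicle levels of Top1 and Top2b were 191 ± 5.65 and 168 ± 9.80. They still did not overlap in vehicle, but after doxorubicin Top1 (165 to 208) and Top2b (145 to 166) did. Tdp2 and Top3b changed places, with 86.7 ± 8.30 for Tdp2 and 67.1 ± 2.52 for Top3b per coding kb in vehicle. Top2a was last under both lengths in both groups.

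**Figure D4:**
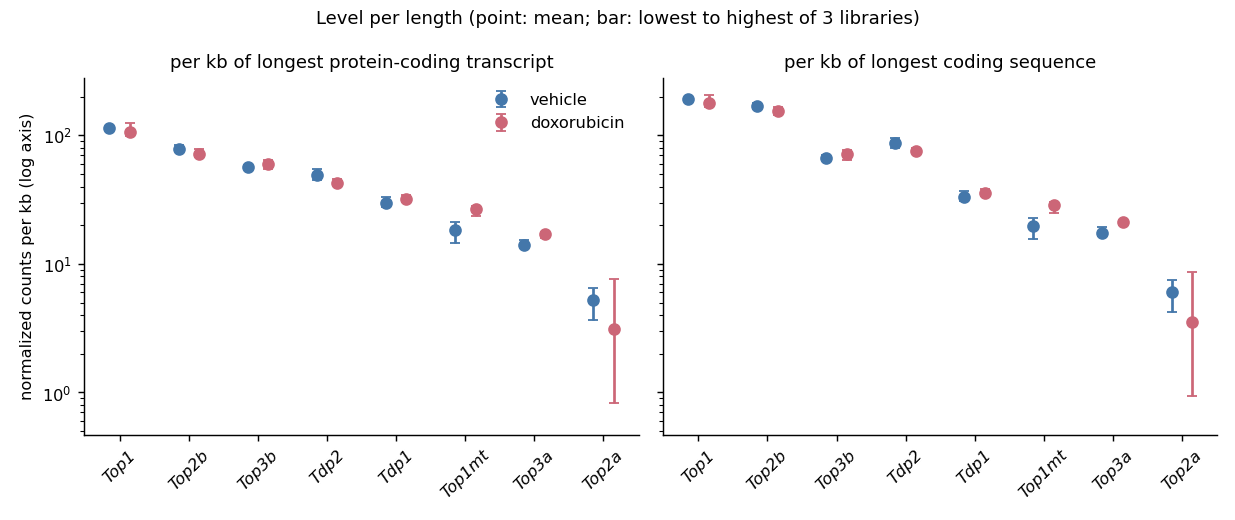
Normalized counts per kb (log axis) of the 8 genes in vehicle and doxorubicin libraries, per kb of the longest transcript (left) and of the longest coding sequence (right), with points for the mean and bars from the lowest to the highest of 3 libraries. Top1 and Top2b are highest and Top2a is lowest in both panels.

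The steps that follow a trapped topoisomerase were read from 3 further lists. Of 12 genes for the processing of protein-DNA crosslinks, all were tested, 0 passed an adjusted p of 0.05, and 2 lay wholly above and 1 wholly below the vehicle libraries (19.2% and 22.6% of tested genes). Their median log2 difference was 0.097. Rbbp8, the end-resection factor CtIP, had the highest difference at 0.83 (SE 0.25, adjusted p 0.086), with values of 67.1, 47.8 and 54.9 in vehicle and 75.9, 104 and 128 after doxorubicin (replicates 1 to 3). Vcp, the ATPase that extracts ubiquitinated proteins, had the lowest at -0.40 (SE 0.20, adjusted p 0.185). Zfp451, the SUMO ligase that assists TDP2, differed by 0.21 (adjusted p 0.429), and Topors, a ligase that binds TOP1, by 0.34 (adjusted p 0.141). Sprtn, the protease that digests crosslinked proteins, differed by 0.27 (adjusted p 0.326).

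The 10 tested genes of single-strand break repair, the route that follows TDP1, had a median of -0.11, with 0 passing an adjusted p of 0.05, 2 wholly higher and 2 wholly lower, near the 19.2% and 22.6% of all tested genes. Fen1, the flap endonuclease, was highest at 0.56 (SE 0.33, adjusted p 0.249), and Parp1, the sensor of strand breaks, was lowest at -0.62 (SE 0.25, adjusted p 0.126). Parp1 held 557, 541 and 619 in vehicle and 559, 321 and 287 after doxorubicin (replicates 1 to 3), so that replicate 1 lay among the vehicle libraries and the others far below. The 10 tested genes of non-homologous end joining, the route that follows TDP2, had a median of -0.22, with 0 passing, 1 wholly higher and 2 wholly lower, against the same shares. Their extremes were Polm, a polymerase that fills ends, at 0.98 (SE 0.37, adjusted p 0.109), and Nhej1, the XLF ligation factor, at -0.93 (SE 0.37, adjusted p 0.122). Both were low, at 11.4 to 38.6 and 8.38 to 22.0 normalized counts.

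The 7 chromatin partners of TOP2B, which are CTCF, cohesin subunits and TOPBP1, all had positive differences, as did 6190 of the 12475 tested genes. The median of the list was 0.27, against -0.0046 in all tested genes. None (0) passed an adjusted p of 0.05 and 3 lay wholly above the vehicle libraries, against 19.2% of all tested genes. Stag2, a cohesin subunit, was highest at 0.33 (SE 0.16, adjusted p 0.178) and Smc3, another, lowest at 0.069 (SE 0.13, adjusted p 0.729). TOPBP1 binds TOP2B but is itself no topoisomerase, and its gene differed by 0.27 (adjusted p 0.320). Without doxorubicin replicate 1, limma called 2 of the 7 higher (19.3% of all tested genes) and 0 lower. At an unadjusted p under 0.05 with all libraries, the tested genes numbered 2 higher among the type IA partners, 1 higher in crosslink processing, 2 lower in single-strand break repair, 1 higher and 2 lower in end joining, 6 lower in mitochondrial DNA maintenance, 1 lower in proliferation and 0 among the chromatin partners. Of all tested genes, 16.7% were higher and 19.3% lower at that threshold.

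**Figure D5:**
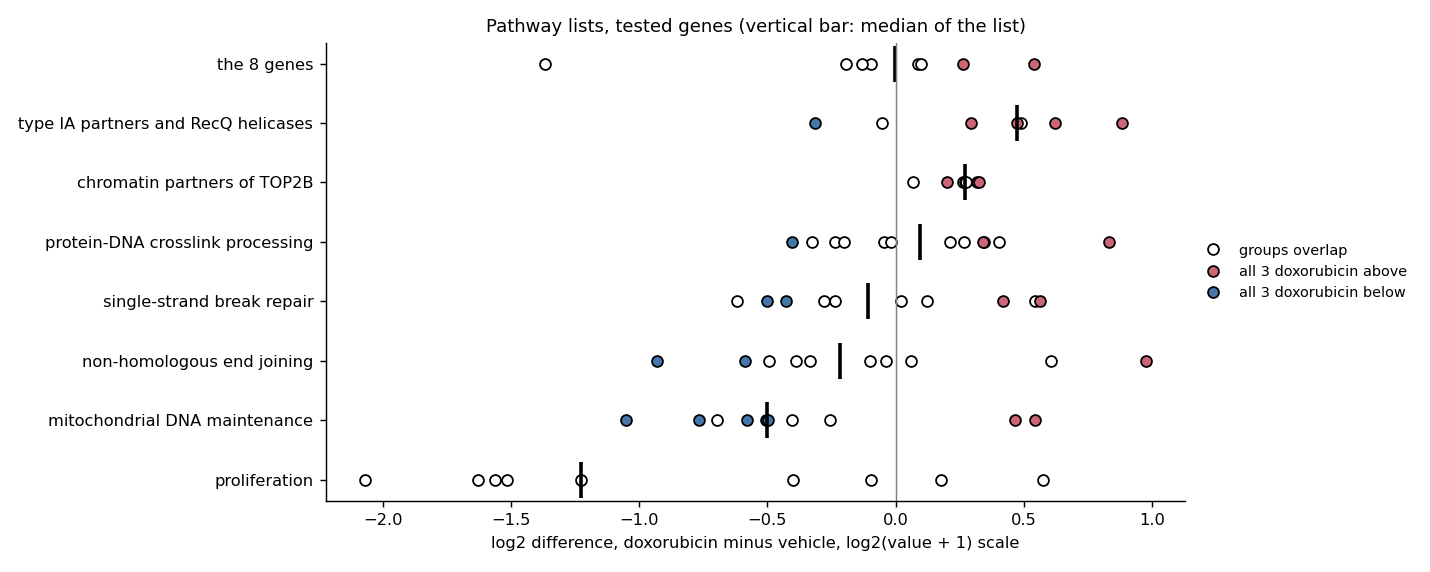
Log2 difference, doxorubicin minus vehicle (horizontal axis, computed on value + 1), of each tested gene of the 8 genes and of 7 lists, with filled points where the groups do not overlap and a vertical bar at the median. List medians run from -1.23 (proliferation) to 0.47 (type IA partners and RecQ helicases), and that of the 8 genes is -0.0036.

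The genes most like Top1, Top2a and Top2b over the 6 libraries were found by the root-mean-square difference of profiles centred on the vehicle mean, among genes with a mean of at least 100. Closest to Top2b were Armh4, Rnf6 and Rabgef1, at 0.037, 0.039 and 0.039 on the log2 scale. Closest to Top1 were Hnrnpa1, Gtpbp1 and Eif3c, at 0.027, 0.035 and 0.038. Hnrnpa1, for example, held 904, 953 and 919 in vehicle and 798, 974 and 801 after doxorubicin (replicates 1 to 3), with the same peak in replicate 2 as Top1. Closest to Top2a were Rgs6, Sez6l2 and Wfdc1, at 0.23, 0.27 and 0.28, which is a looser likeness. Of the listed proliferation genes only Cenpf reached the mean of 100, so the others, Mki67 and Mcm2 among them, were not candidates. Rgs6 held 218, 152 and 245 in vehicle and 231, 46.9 and 46.8 after doxorubicin (replicates 1 to 3). These profiles share libraries and their depth, and the likeness is a description.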

How the data were processed

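RNA sequencing was done on 6 libraries, 3 per group, which the sample titles assign to vehicle or doxorubicin. Per the labels, reads were aligned with STAR in RNAseq Alignment 2.0.2 to mm10 with RefSeq genes, followed by RNA-seq Differential Expression 1.0.1; the submitters' processing notes also name STAR 2.6.1a and Salmon. The authors deposited a non-negative signal, normalized counts, with 1 column per library. How they were normalized, filtered and counted by strand is not given in the sources used here.

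Values were used as deposited, after dropping 2 repeated names. Genes with a mean of at least 10 were tested as log2(value + 1), which understates changes of low genes, with limma 3.58.1 in R 4.3.3 (trended prior, two-sided, Benjamini-Hochberg threshold 0.05 over 12475 genes). The fit was tested on simulated data with the same noise in every gene and library and equal changes in all doxorubicin libraries. The real doxorubicin libraries were unequal, so the simulation does not check the fit for that case. Reads were estimated from the most common low value of each library; 80.2% to 92.5% of low values lay within 0.1 of a whole multiple, too few for tests on counts. Figures used matplotlib 3.10.9.

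The members, lists and rules were chosen with earlier results of these data known. Named are the 8 genes, the highest and lowest tested gene of each list, and the 3 genes most alike to Top1, Top2a and Top2b; Mki67, Mcm2, Zfp451, Topors, Sprtn, Topbp1 and the genes behind a small count were added after their values were seen. Coordinates come from RefSeq on GRCm38.p6 and lengths from GENCODE M21. One erythroid marker is not reported here.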

Additional observations from a re-analysis of the deposited data

How the results depend on the processing

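No setting other than library weights called any of the 8 genes with all 6 libraries. With weights, which gave doxorubicin replicate 1 a weight of 0.277, Top2a was called at -1.74 (limma adjusted p 0.0409), with 1953 genes called higher and 2318 lower. A threshold of 0.10 gave 1382 higher and 1639 lower, and none (0) of the 8. Leaving out a library gave 0 to 2409 genes higher and 0 to 2718 lower, the upper ends without doxorubicin replicate 1; without replicate 2 it was 1 lower. Equal library totals moved the all-gene median to 0.29 and turned Top1 to 0.21, Top2b to 0.17 and Tdp2 to 0.10; relative to that median they were -0.088, -0.12 and -0.19. Under it 4 of the 8 genes lay wholly higher, Top3b and Tdp1 being added, against 36.7% of tested genes higher and 10.1% lower. Quantile normalization turned Tdp1 to -0.040 and left 1 gene wholly higher (Top1mt) and 1 wholly lower (Tdp2), against 17.9% and 21.6% of tested genes. A minimum mean of 50 left 1 wholly higher (18.9% of tested genes) because Top1mt was not tested, and 0 wholly lower (26.2%).

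Leaving out each library in turn gave 2 to 3 of the 8 genes wholly higher (20.5% to 31.6% of tested genes) and 0 to 3 wholly lower (24.0% to 32.9%), the 3 being Top2a, Top2b and Tdp2 without doxorubicin replicate 1, where the share was 32.9%. Top1 ran from -0.20 to -0.038, Top1mt from 0.38 to 0.65, Top2a from -2.32 to -0.86, Top2b from -0.19 to -0.083, Top3a from 0.22 to 0.33, Top3b from 0.037 to 0.16, Tdp1 from 0.048 to 0.18 and Tdp2 from -0.25 to -0.12. The list median of end joining ran from -0.29 to -0.14, and that of proliferation from -1.96 without doxorubicin replicate 1 to -0.45 without replicate 2.

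With equal totals the list medians were 0.77 (type IA partners), 0.57 (chromatin partners), 0.40 (crosslink processing), 0.19 (single-strand break repair) and 0.080 (end joining). Those of mitochondrial DNA maintenance and of proliferation were -0.20 and -0.97 with equal totals. With quantile normalization they were 0.19 (type IA partners) and -0.35 (end joining), and with a minimum mean of 50 they were -0.26 (single-strand break repair) and -0.36 (end joining); fewer genes were tested there.

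Per kilobase of coding sequence, an alternative chosen after seeing the data, vehicle and doxorubicin levels were 191 and 180 for Top1, 168 and 154 for Top2b, 17.5 and 21.1 for Top3a, 67.1 and 71.5 for Top3b, 33.1 and 35.5 for Tdp1 and 86.7 and 75.5 for Tdp2. Per median transcript length they were 780 and 713 for Top2b, whose annotation holds short fragments, 18.0 and 21.7 for Top3a, 195 and 208 for Top3b and 62.2 and 54.2 for Tdp2. Top1 stayed at 114 and 107 there, below Top2b and Top3b.

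Replicate numbers are shared between groups, but same-numbered libraries did not deviate together (correlations of deviations -0.13, 0.033 and -0.093), and 0 of 6 libraries correlated best with its own number. With a replicate block limma called 0 genes higher and 0 lower, with 3707 at an unadjusted p under 0.05, and the block changed no other call.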

Other observations

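Transcripts of Xist and of the Y-linked gene Ddx3y split the libraries across treatment, and the labels give no sex. Vehicle replicate 3 and doxorubicin replicates 1 and 3 held Xist at 1558 to 2093, and the other 3 libraries held Ddx3y at 659 to 958. Within these classes the log2 difference of Top1mt was 0.55 and 0.40, that of Top3a 0.31 and 0.24, that of Top2b -0.18 and -0.17 and that of Top2a -1.04 and -2.20, for libraries with Xist and with Ddx3y in turn. Tdp1, at 0.12 and 0.17, and Tdp2, at -0.32 and -0.16, kept their sign. Top3b had opposite signs, 0.21 and -0.075, and so did Top1, -0.23 and 0.13. The test of that difference, an interaction term in limma added after the data were seen, gave an unadjusted p of 0.303 for Top1, and 0 genes passed an adjusted p of 0.05 over all genes. Each class holds a single library of 1 group, so the test has little power.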
